A study of Mus musculus with 9 samples.

Results

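The genes of the cytoplasmic ribosome were followed in mouse embryonic stem (ES) cells that lack Dgcr8 or Dicer. Members were the rows of the deposited array table whose gene symbol in the platform annotation names a small subunit protein (Rps, with Rpsa) or a large subunit protein (Rpl, with the stalk proteins Rplp0, Rplp1 and Rplp2). Kinases of the Rps6k family and symbols marked as pseudogenes were left out. The rule found 215 of 35557 rows, 84 for the small subunit and 131 for the large subunit, and these carry 22 and 37 gene symbols. Each row is a transcript cluster, a set of probes that was summarized to 1 log2 level per array. Of the 59 genes, 20 have 1 cluster and 39 have several, up to 14 for Rps12. The annotation does not say which cluster of a symbol is the gene itself and which is a near-identical copy elsewhere in the genome. In all, 19 clusters share their 9 values with another member, so clusters of the same gene are not independent and the counts are given over clusters and over genes. A further 233 clusters carry several symbols, at least 1 of which matches, and are not members. For 16 genes, Rpl3, Rpl11, Rpl32 and Rps24 among them, these are the only clusters.

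RNA was measured on 9 Affymetrix Mouse Gene ST arrays, 3 from wild-type ES cells (WT) and 3 from each mutant line (Dgcr8 KO and Dicer KO), with no treatment in any group. The WT cells are the line v6.5, the Dgcr8 KO cells carry a deletion of exon 3 of Dgcr8, and the Dicer KO cells lack Dicer (the gene Dicer1). The number of clones behind each mutant is not given in the sources used here. Biological replicates are named in the methods but triplicate plates in the labels, and p-values may thus reflect only technical spread between plates.

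Dgcr8 is the partner of Drosha in the Microprocessor, which cuts hairpins out of primary transcripts in the nucleus, and Dicer cuts the released hairpins into mature miRNAs. The ribosome is built from ribosomal RNA and a large set of proteins, most of them needed in equal number, and dividing ES cells spend a large share of their transcription on them. Most ribosomal protein mRNAs begin with a run of pyrimidines, the terminal oligopyrimidine (TOP) tract, through which their translation follows growth signals. Besides the core proteins, mammals carry a few paralogs, often copied from an X-linked or abundant parent gene, that are expressed in few tissues.

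The targeted genes followed the labels. Dgcr8 had a mean log2 level of 9.80 in WT, 8.85 in its own knockout and 9.99 without Dicer, and Dicer1 had 10.20, 10.42 and 8.36. The 10 ES cell markers had group means of 9.75 to 13.65 in the 3 genotypes, and the 15 markers of fibroblasts and feeder cells 3.27 to 7.64. Summed on the linear scale, the fibroblast markers reached 1315 to 1481 in WT, 1335 to 1489 without Dgcr8 and 1143 to 1238 without Dicer, and the ES cell markers 34987 to 36152, 41149 to 41847 and 44460 to 44912. Each mutant had 6 of these 10 markers called above WT, while those called below it numbered 1 without Dgcr8 and 2 without Dicer. In Dicer KO, 3 of the 15 fibroblast markers were lower than in WT and none was higher, and in Dgcr8 KO 1 was higher and none was lower. The part of both marker lists in the results below was not tested. The medians of the arrays lay between 6.49 and 6.56, and those of the 215 members between 12.10 and 12.18.

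The sequences at the 5′ ends were read from RefSeq promoter windows of the build GRCm38.p6, 250 bases before to 50 bases after each annotated start, which were given for 47 of the 59 genes. A pyrimidine tract was counted where a run of at least 6 C or T on the transcribed strand could be read from a C within 5 bases of the start. The bases before that C were not checked. It was present in 15 of 42 core genes (35.7%) and in 11.9% of all 27025 genes with a window. The count depends on where the start is annotated, so genes counted without the tract may still carry one. The starts of 4 large subunit genes that were lower than WT in both mutants are shown because they carry the tract. Each runs from 10 bases before to 20 bases from the annotated start. Capitals mark the tract as counted, which can be part of a longer run of C or T.
Rpl7a, chr2:26910797-26910826, + strand: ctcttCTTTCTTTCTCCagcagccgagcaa
Rpl38, chr11:114668570-114668599, + strand: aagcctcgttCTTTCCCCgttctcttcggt
Rpl34, chr3:130730379-130730408, - strand: tccctgacgtaCTTCCTgtccggcgccgtc
Rpl12, chr2:32961702-32961731, + strand: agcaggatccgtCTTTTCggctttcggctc

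The tract occurred in genes that were lower and in genes that were not. In Dgcr8 KO, 8 of the 15 core genes with the tract had a cluster lower than in WT, beside 9 of the 27 without it, and in Dicer KO the numbers were 6 of 15 and 8 of 27. These shares were not tested, and the split also depends on the annotated starts. Of the motifs searched on both strands of the windows, the ETS letters CCGGAAG stood in 16 of the 42 core genes (38.1%) and in 9.9% of all genes, and the GC box GGGCGG in 25 (59.5%) and 38.2%. The YY1 letters AAGATGG (9.5% of core genes, 7.3% of all), the E-box CACGTG (11.9% and 8.1%) and the TATA letters TATAAA (11.9% and 15.7%) were found in few. The ETS and YY1 letters can overlap in the bases they share.

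The X-linked gene Rpl10 and its autosomal paralog Rpl10l are shown together because Rpl10l had the largest log2 ratio of all members, and Rpl39l and Rps27l because theirs were the largest in Dgcr8 KO. Each line gives the 100 bases before the annotated start, with ETS letters or a GC box in capitals.
Rpl10, chrX:74270716-74270815, + strand: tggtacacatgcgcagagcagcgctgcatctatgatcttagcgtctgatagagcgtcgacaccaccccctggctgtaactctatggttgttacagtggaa
Rpl10l, chr12:66284402-66284501, - strand: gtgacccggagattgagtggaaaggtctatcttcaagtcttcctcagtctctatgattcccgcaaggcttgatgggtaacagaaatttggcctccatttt
Rpl39l, chr16:10170128-10170227, + strand: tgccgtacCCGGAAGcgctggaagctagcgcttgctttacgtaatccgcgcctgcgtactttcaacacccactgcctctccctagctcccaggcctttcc
Rps27l, chr9:66945986-66946085, + strand: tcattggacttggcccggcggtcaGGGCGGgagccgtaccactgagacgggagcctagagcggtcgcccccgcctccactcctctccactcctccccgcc

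To ask how the ribosomal protein mRNAs as a group differ without the Microprocessor, Dgcr8 KO was compared with WT. Of the 215 clusters, 53 (24.7%) were lower and 4 (1.86%) were higher in Dgcr8 KO at an adjusted p under 0.05 in limma. Adjustment was over 22999 transcripts, of which 17.3% were lower and 15.7% were higher. Among the brightest 25% of these transcripts, 33% were lower and 25% were higher. Lower clusters belonged to 24 genes and higher clusters to 3, no gene had clusters in both directions, and 32 genes had no called cluster. All 4 higher clusters carried the symbols of the paralogs Rpl39l, Rpl10l and Rps4l. The median log2 ratio over the 215 clusters was -0.076, beside -0.010 over all transcripts, and 20 members differed by more than 1.2-fold. The median was -0.11 beside -0.048 over all transcripts when each array was centred on its median, -0.020 beside -0.0092 after quantile normalization and -0.0072 beside 0.0066 after cyclic loess. By SAM, the test of the study, rewritten here from its description, 2 members were lower and 3 were higher. How many of all transcripts it called is not given here. Its added constants against WT (0.741 for Dgcr8 KO and 0.469 for Dicer KO) were far above the members' median SE in limma (0.0463). Small ratios thus had little room to be called, and a missing SAM call adds little.

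Because most members are bright, they were also set beside transcripts of the same level. Among the 352 transcripts with a mean log2 level between 12 and 13, which include 102 members, the median log2 ratio in Dgcr8 KO was -0.060, and that of the members was -0.065. Between 11 and 12 the medians were -0.088 over 642 transcripts and -0.092 over 67 members. At these levels the members lay near the middle of all transcripts. Between 13 and 14 the 21 members had a median of -0.096, below the lower quartile of -0.0932 over 143 transcripts, whose median was -0.056. Between 10 and 11 the medians were -0.16 over 9 members and -0.057 over all transcripts, and between 9 and 10 they were -0.15 over 8 members and -0.023. The transcripts of each level include the members themselves. All transcripts also include the 233 clusters with several symbols, at least 1 of them matching, whose median in Dgcr8 KO was -0.092. The medians compared are therefore not independent, and the members were not set beside bright transcripts of other genes alone. Since RNA was taken from whole cultures, less of an mRNA per cell and fewer cells that make it cannot be told apart.

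**Figure D1:**
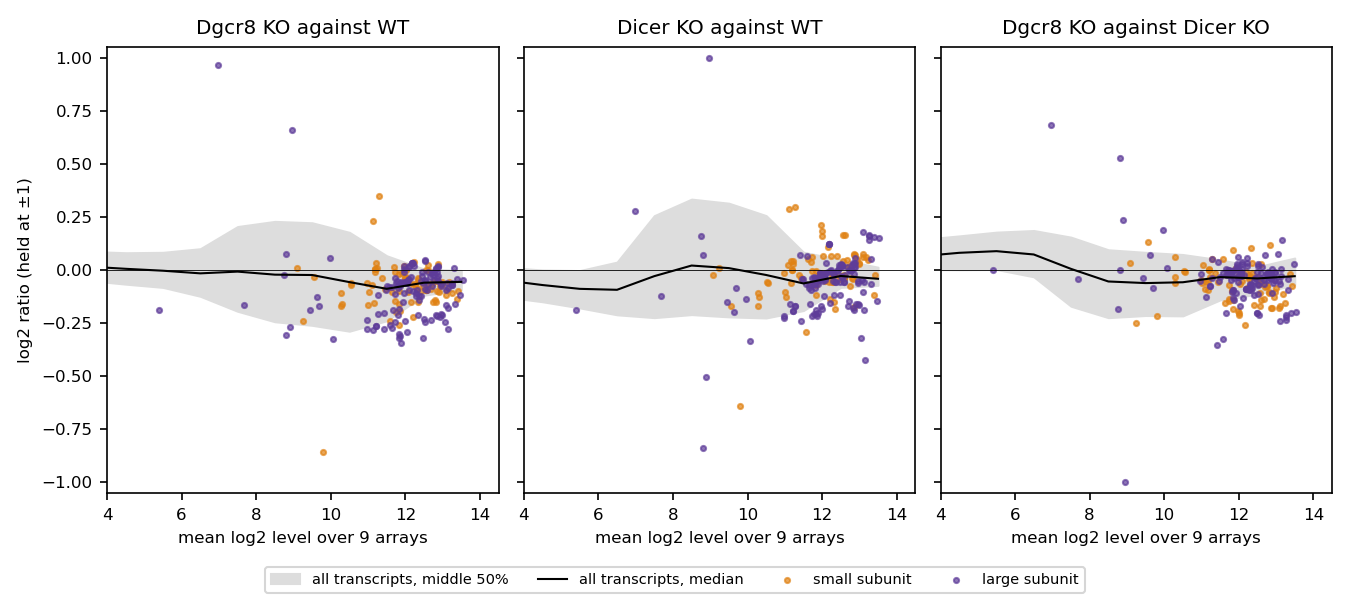
Log2 ratio of the 215 ribosomal protein clusters (points, small subunit in orange and large subunit in purple) against their mean log2 level over 9 arrays, with the median (line) and the middle 50% (band) of all transcripts of the same level. Most members lie between levels of 11 and 14, and the few far from the line of all transcripts include Rpl10l, whose ratios of 2.25 and -1.59 are drawn at the edge of the axis.

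Small subunit clusters were lower in 13 of 84 cases in Dgcr8 KO (15.5%) and higher in 2, and large subunit clusters were lower in 40 of 131 (30.5%) and higher in 2. By genes, 8 of 22 small subunit genes and 16 of 37 large subunit genes had a lower cluster. The medians were -0.084 and -0.076. After quantile normalization 6 small (7.14%) and 32 large subunit clusters (24.4%) were lower in Dgcr8 KO, beside 18% of all transcripts. After cyclic loess these were 6 (7.14%) and 33 (25.2%), beside 15.9%. With each array centred on its median they were 17 (20.2%) and 48 (36.6%), beside 19.7%. The mean log2 level of the 53 core genes, each gene counted once, was 11.62, 11.69 and 11.68 in WT, 11.55, 11.55 and 11.53 without Dgcr8 and 11.58, 11.57 and 11.57 without Dicer. The core genes are those whose symbols do not end in l. Over them all 6 mutant arrays lay below the 3 WT arrays, with mean differences of -0.12 and -0.091. Means per array are given for the deposited scaling only. Over all 59 genes the differences were -0.092 and -0.045, and WT replicate 1 (11.284) lay below Dicer KO replicate 1 (11.287). Within the core small subunit genes the differences were -0.096 and -0.047, with WT replicate 1 (11.687) below Dicer KO replicate 1 (11.696). Within the core large subunit genes they were -0.13 and -0.12.

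In Dicer KO, 39 of the 215 clusters (18.1%) were lower than in WT and 15 (6.98%) were higher. Of all transcripts 19.1% were lower and 17.8% were higher, and of the brightest 25% of transcripts 27.9% and 30.8%. Lower clusters belonged to 19 genes and higher clusters to 5. The 5 were Rpl10l, Rps4l, Rpl32l and the X-linked core genes Rps4x and Rpl10. The median over the members was -0.035, beside -0.057 over all transcripts. Of the small subunit clusters 7 were higher and 6 lower, with a median of -0.024, which became 0.0036 after cyclic loess. Of the large subunit clusters 8 were higher and 33 lower, with a median of -0.044. The number of lower members was 25 without WT replicate 3, 22 without Dicer KO replicate 1 and 25 without Dicer KO replicate 2, and that of higher members was 8 without Dicer KO replicate 1. After cyclic loess 22 members were higher and 34 lower.

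Both comparisons use the same WT arrays. Across both, 31 clusters were lower and 3 were higher in both mutants, 22 were called lower in Dgcr8 KO alone, 8 lower in Dicer KO alone, 1 higher in Dgcr8 KO alone and 12 higher in Dicer KO alone. No cluster was called in opposite directions, and 138 were called in neither mutant. These patterns are not given over all transcripts, so the counts do not set the members apart from other genes.

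**Figure D2:**
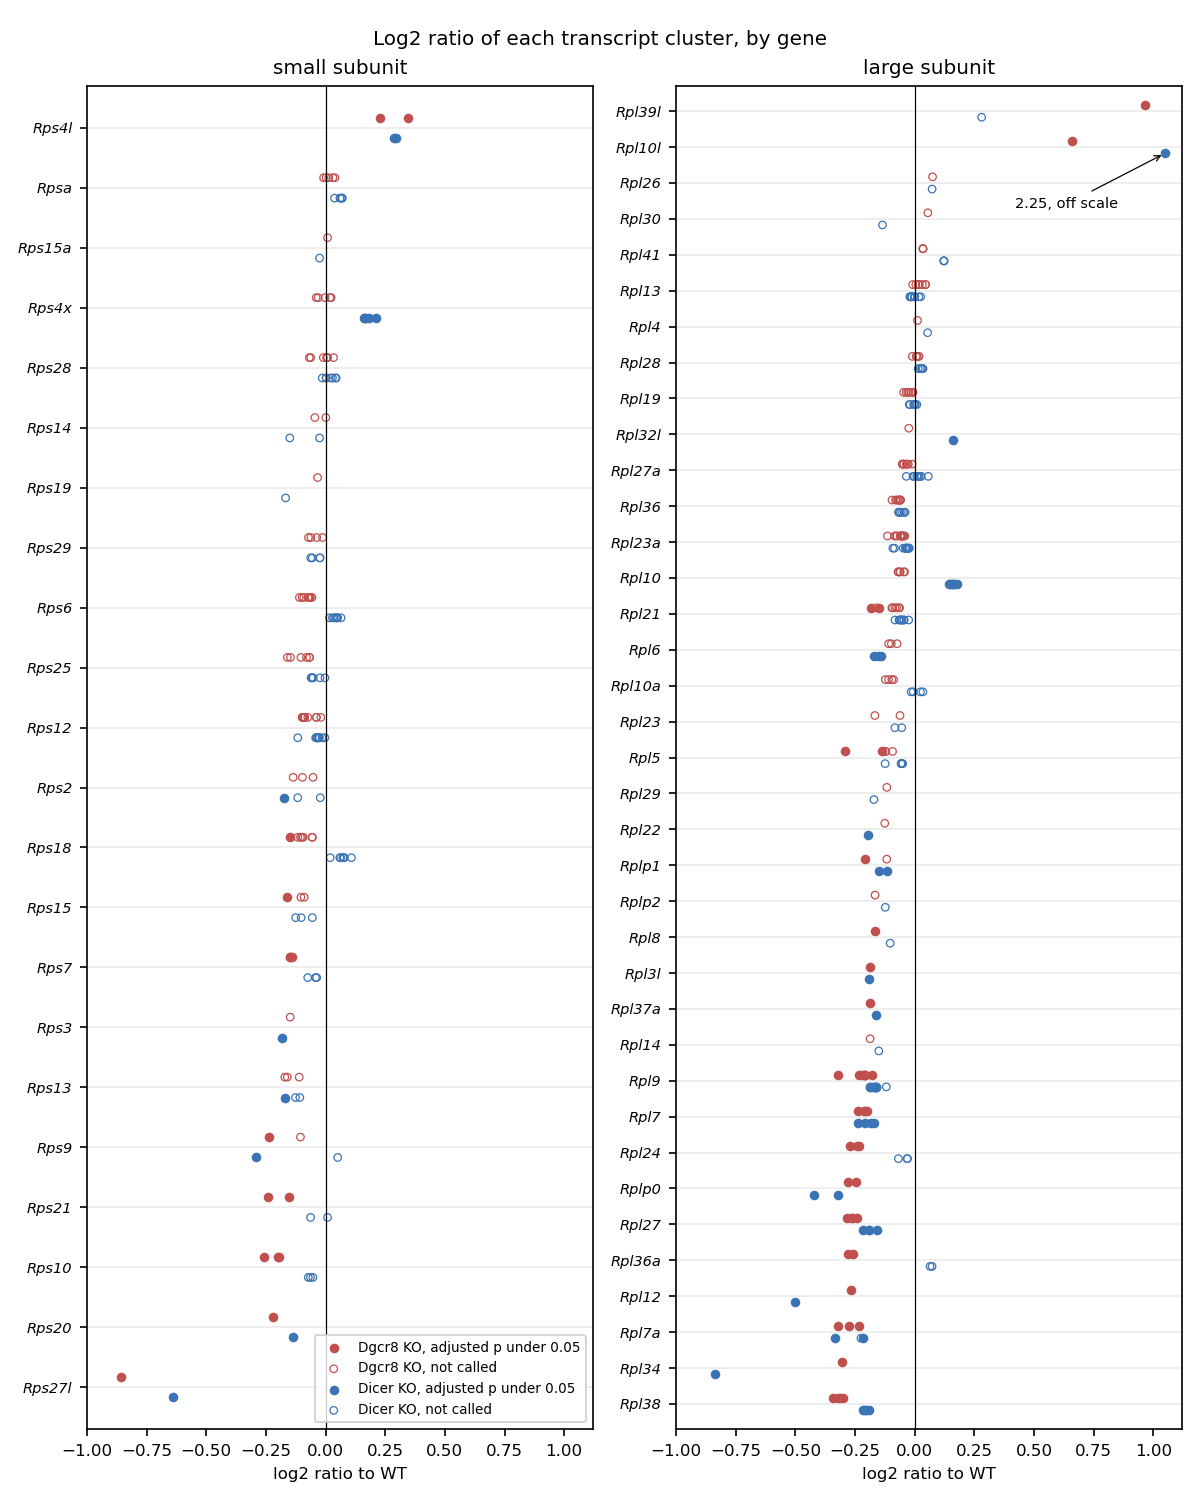
Log2 ratio to WT (x axis) of every transcript cluster of the 59 genes (y axis, ordered by the median ratio in Dgcr8 KO), with Dgcr8 KO in red and Dicer KO in blue and filled points for an adjusted p under 0.05. Clusters of the same gene lie close together for most genes. Exceptions include Rps9 in Dicer KO (-0.29 and 0.05) and Rpl5 in Dgcr8 KO (-0.29 to -0.09). Most core genes lie between -0.35 and 0.2, and Rpl10l in Dicer KO (2.25) is drawn at the edge of the axis.

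The stalk of the large subunit, which recruits the translation factors that use GTP, was measured by 6 clusters of Rplp0, Rplp1, Rplp2 and Rpl12, whose protein sits at its base. Of these, 4 were lower without Dgcr8 and 5 without Dicer, and none was higher in limma, in SAM or at an unadjusted p under 0.05. SAM called 0 and 3 of them lower, and the log2 ratios had medians of -0.23 and -0.24. The brighter cluster of Rplp0, the stalk protein that binds ribosomal RNA, was at 13.40, 13.37 and 13.40 in WT, 13.11, 13.06 and 13.15 without Dgcr8 and 13.01, 12.99 and 12.90 without Dicer. All mutant arrays were thus below all WT arrays. It fell by 0.28 on the log2 scale in Dgcr8 KO (adjusted p = 0.00159) and by 0.42 in Dicer KO (adjusted p = 0.000102), and its second cluster by 0.25 and 0.32. Rpl12 was at 9.12, 9.11 and 9.23 in WT, 8.80, 8.95 and 8.90 without Dgcr8 and 8.65, 8.65 and 8.64 without Dicer. Its level was lowest in Dicer KO, where it fell by 0.50 (adjusted p = 6.49e-05), and it fell by 0.27 in Dgcr8 KO (adjusted p = 0.00378). Of the acidic stalk proteins, both clusters of Rplp1 were lower in Dicer KO, with log2 ratios of -0.15 and -0.12, and 1 of them in Dgcr8 KO, with -0.21. The call of the brighter cluster in Dicer KO (adjusted p = 0.0438) was lost under 14 of 21 alternative settings, with adjusted p up to 0.169. Rplp2 had ratios of -0.17 and -0.12 that did not pass the test.

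Rpl34, a large subunit protein, had the largest change in Dicer KO among the core genes. Its log2 levels were 9.06, 9.27 and 9.22 in WT, 8.90, 8.90 and 8.82 without Dgcr8 and 8.42, 8.15 and 8.46 without Dicer. The 3 genotypes did not overlap. It fell by 0.84 in Dicer KO (SE 0.0893, adjusted p = 6e-05) and by 0.31 in Dgcr8 KO (adjusted p = 0.0253). The latter call was lost under 5 of 21 alternative settings, with adjusted p up to 0.0914, and the former under none.

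Rpl38, a small protein of the large subunit that is known for its part in translating Hox mRNAs in the embryo, had 4 clusters and all were lower in both mutants. The brightest was at 11.98, 12.15 and 12.05 in WT, 11.72, 11.76 and 11.67 without Dgcr8 and 11.81, 11.89 and 11.87 without Dicer. It fell by 0.34 in Dgcr8 KO (adjusted p = 0.00103), the largest fall among the core genes there, and by 0.20 in Dicer KO (adjusted p = 0.0178), a call that was lost under 4 of 21 alternative settings, with adjusted p up to 0.07. The other 3 clusters had ratios of -0.30 to -0.32 in Dgcr8 KO and -0.19 to -0.22 in Dicer KO. Rpl27 and Rpl7 each had 4 clusters that were all lower in both mutants, with median ratios of -0.26 and -0.19 for Rpl27 and -0.21 and -0.20 for Rpl7. All 8 clusters of Rpl9 were lower in Dgcr8 KO (-0.18 to -0.32) and 7 of them in Dicer KO. Rpl7a had 3 clusters lower in Dgcr8 KO, of which 2 were lower in Dicer KO too. The dimmest of them fell by 0.32 (adjusted p = 0.00088) and by 0.33 (adjusted p = 0.000641).

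Other large subunit genes were called in 1 mutant. Rpl24, which forms a bridge to the small subunit, had 3 clusters lower in Dgcr8 KO (-0.23 to -0.27) and none called in Dicer KO (-0.03 to -0.07). Its brightest cluster was at 12.57, 12.63 and 12.68 in WT, 12.34, 12.46 and 12.35 without Dgcr8 and 12.62, 12.59 and 12.58 without Dicer, so that the Dgcr8 KO arrays lay below the other 6. All 3 clusters were also lower than in Dicer KO in the direct comparison, with a ratio of -0.21 for the brightest (adjusted p = 0.0158). The 3 clusters of Rpl6 were called lower in Dicer KO (-0.14 to -0.17) and not in Dgcr8 KO (-0.07 to -0.11), and none of them differed between the mutants at the threshold. Rpl5, which carries 5S ribosomal RNA together with Rpl11, had 2 of 5 clusters lower in Dgcr8 KO and a median of -0.12. Rpl11 is measured only in clusters with several symbols.

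Of the proteins around the exit of the peptide tunnel, Rpl19, Rpl22, Rpl23a and Rpl26 were measured by 22 clusters of their own, with median ratios of -0.052 and -0.028. In limma 1 of these clusters was called, Rpl22 in Dicer KO with -0.20, and 2 were lower at an unadjusted p under 0.05 in Dgcr8 KO. Rpl13, Rpl19, Rpl28 and Rpl36, with 5 to 9 clusters each, had medians between -0.06 and 0.03 in both mutants. None of their 30 clusters was called in limma or had an unadjusted p under 0.05. SAM called none of them either, but its added constants left such small ratios little room to be called.

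In the small subunit, the beak of the head was measured by 17 clusters of Rps10 and Rps12. All 3 clusters of Rps10 were lower in Dgcr8 KO, and none of Rps12's 14 was called in either mutant by limma or SAM, with 0 and 1 at an unadjusted p under 0.05. The cluster of Rps10 with the largest ratio was at 11.88, 12.00 and 11.96 in WT, 11.71, 11.72 and 11.64 without Dgcr8 and 11.86, 11.86 and 11.90 without Dicer, and it fell by 0.26 in Dgcr8 KO (adjusted p = 0.00276). In Dicer KO its ratio was -0.07 and did not pass the test. The brightest cluster of Rps10 had a ratio of -0.19 in Dgcr8 KO (adjusted p = 0.0101 in limma). This call was lost under 3 of 21 alternative settings, with adjusted p up to 0.0872.

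Rps7 had 3 clusters lower in Dgcr8 KO, with ratios of -0.14 to -0.15 and adjusted p of 0.0253 to 0.0382, and ratios of -0.04 to -0.07 in Dicer KO. Rps21 had 2 clusters lower in Dgcr8 KO, with -0.15 and -0.24. The call of the brighter one (adjusted p = 0.025) was lost under 9 of 21 alternative settings, with adjusted p up to 0.307 and a ratio as small as -0.07. Rps20 was lower in both mutants, with -0.22 and -0.14. At the mRNA entry, Rps3 was lower in Dicer KO with -0.18 (adjusted p = 0.0205) and had -0.15 in Dgcr8 KO (adjusted p = 0.0556). Its call in Dicer KO was lost under 6 of 21 alternative settings, with adjusted p up to 0.0694. Also at the entry, 1 of 3 clusters of Rps2 was lower in Dicer KO, and neither cluster of Fau, which encodes a small subunit protein under another name, was called. At the mRNA exit none of the 14 clusters of Rpsa, Rps14 and Rps28 was called by limma or SAM, their medians were 0.0034 and 0.033, and 0 in Dgcr8 KO and 1 in Dicer KO had an unadjusted p under 0.05.

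Among the X-linked members, both genes that were called in Dicer KO were higher. Rps4x, a small subunit protein, had 5 clusters and Rpl10, a protein of the large subunit near the tRNA sites, had 6, and all 11 were higher in Dicer KO than in WT, with ratios of 0.16 to 0.21 for Rps4x and 0.14 to 0.18 for Rpl10. None of the 11 was called in Dgcr8 KO, also at an unadjusted p under 0.05, and SAM called none of them in either mutant. The brightest cluster of Rpl10 was at 13.49, 13.51 and 13.52 in WT, 13.46, 13.45 and 13.46 without Dgcr8 and 13.67, 13.66 and 13.63 without Dicer. The Dicer KO arrays lay above the other 6, and the rise was 0.15 (SE 0.0407, adjusted p = 0.0172), a call lost under 4 of 21 alternative settings, with adjusted p up to 0.064. The brightest cluster of Rps4x was at 12.47, 12.55 and 12.61 in WT, 12.62, 12.55 and 12.53 without Dgcr8 and 12.74, 12.70 and 12.68 without Dicer, with a rise of 0.16 (adjusted p = 0.0363) that was lost under 11 of 21 alternative settings, with adjusted p of 0.00327 to 0.113.

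Rpl36a, the third X-linked gene, had 2 clusters that were lower in Dgcr8 KO and close to WT in Dicer KO. The brighter was at 11.62, 11.69 and 11.63 in WT, 11.43, 11.36 and 11.37 without Dgcr8 and 11.71, 11.69 and 11.73 without Dicer. It fell by 0.26 in Dgcr8 KO (adjusted p = 0.00149) and had a ratio of 0.06 in Dicer KO (adjusted p = 0.303). In the direct comparison, 12 of the 13 X-linked member clusters were lower without Dgcr8 than without Dicer. Other X-linked transcripts leaned the same way. Of the 741 X-linked transcripts with 1 symbol that are no members, 252 (34.0%) were higher and 87 (11.7%) lower in Dicer KO than in WT, and in the direct comparison 273 (36.8%) were lower without Dgcr8 and 33 (4.45%) higher. The part of the chromosome in the result was not tested, and some clusters of Rps4x and Rpl10 may measure copies on other chromosomes.

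**Figure D3:**
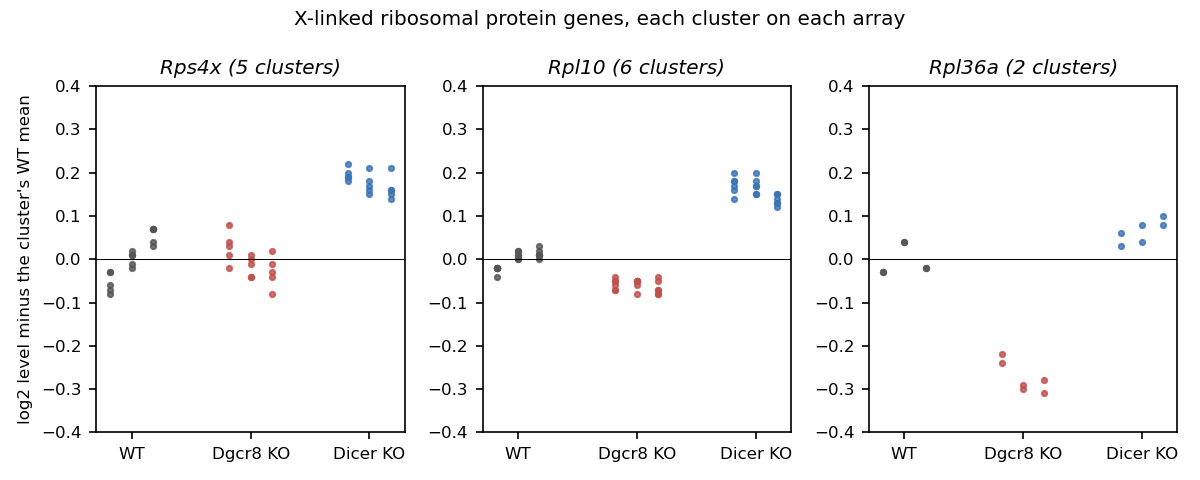
Log2 level of each cluster of the X-linked genes Rps4x, Rpl10 and Rpl36a on each array, minus the cluster's mean over the WT arrays (y axis), by genotype (x axis, 3 arrays each side by side). The Dicer KO points of Rps4x and Rpl10 lie above all WT points, and the Dgcr8 KO points of Rpl36a lie below all others.

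The largest log2 ratios of all members in each mutant were those of paralogs. In Dicer KO it was that of Rpl10l, an intronless copy of Rpl10 that is known from the testis, where it is needed in male meiosis. Its log2 levels were 7.67, 8.34 and 7.97 in WT, 8.62, 8.74 and 8.60 without Dgcr8 and 10.16, 10.33 and 10.24 without Dicer. The 3 genotypes did not overlap. It rose by 2.25 in Dicer KO (SE 0.141, 4.75-fold, adjusted p = 1.76e-06) and by 0.66 in Dgcr8 KO (1.58-fold, adjusted p = 0.00523), and over 21 alternative settings these ratios ranged from 2.09 to 2.42 and from 0.50 to 0.83 with no call lost.

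Rpl39l, a paralog of Rpl39 that is known from the testis and from ES cells, had the reverse order of the mutants. Its levels were 6.67, 6.63 and 6.37 in WT, 7.35, 7.67 and 7.54 without Dgcr8 and 6.83, 6.92 and 6.75 without Dicer. Dgcr8 KO was above both other genotypes, with a rise of 0.96 over WT (SE 0.102, adjusted p = 6.57e-05). Its ratio in Dicer KO was 0.28 (adjusted p = 0.0574), and that ratio passed the threshold under 10 of 20 alternative settings, with adjusted p from 0.0178 to 0.173.

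Rps27l, a paralog of Rps27 that is known as a target of p53, went the other way. It was at 10.17, 10.35 and 10.36 in WT, 9.45, 9.47 and 9.39 without Dgcr8 and 9.65, 9.67 and 9.64 without Dicer. All mutant arrays lay below all WT arrays. It fell by 0.86 in Dgcr8 KO (SE 0.0582, adjusted p = 4e-06), the largest fall of any member there, and by 0.64 in Dicer KO (adjusted p = 2.11e-05).

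Of the other symbols that end in l, both clusters of Rps4l, which RefSeq lists as a transcribed pseudogene, were higher in both mutants. The brighter was at 11.04, 11.13 and 11.05 in WT, 11.40, 11.52 and 11.35 without Dgcr8 and 11.42, 11.34 and 11.35 without Dicer, with a rise of 0.35 (adjusted p = 0.000983) and of 0.30 (adjusted p = 0.00233). Rpl3l, the paralog known from heart and skeletal muscle, was dim, at 5.43 to 5.60 in WT, and was called lower with -0.19 in both mutants, calls that were lost under 14 and 13 of 19 alternative settings. Rpl32l was called higher in Dicer KO with 0.16, and this call was lost under 13 of 21.

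**Figure D4:**
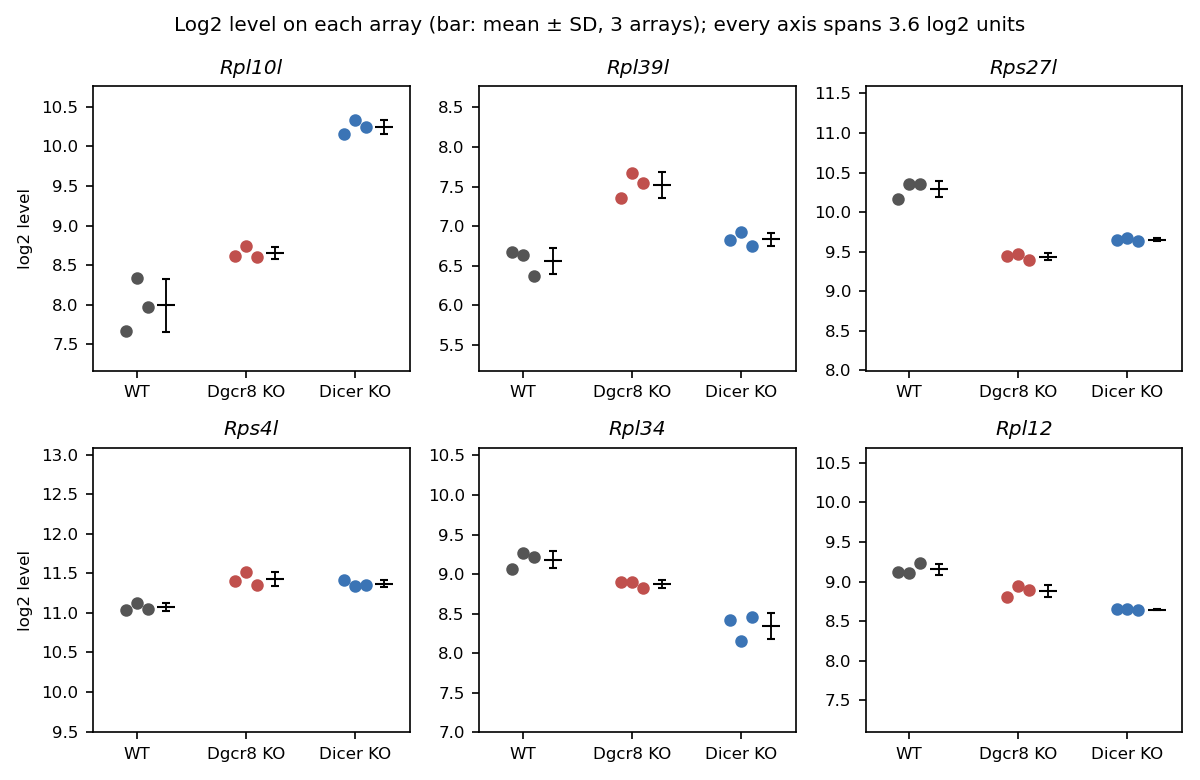
Log2 level on each array (points) with the mean ± SD over 3 arrays (bars) for the paralogs Rpl10l, Rpl39l, Rps27l and Rps4l and for the core genes Rpl34 and Rpl12, by genotype, with every y axis spanning the same number of log2 units. Rpl10l was highest in Dicer KO (10.16 to 10.33), Rpl39l in Dgcr8 KO (7.35 to 7.67), and Rps27l, Rpl34 and Rpl12 were lower in both mutants than in WT.

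Set directly against each other, the mutants differed in 29 of the 215 clusters, 25 lower (11.6%) and 4 higher (1.86%) without Dgcr8 than without Dicer. Of all transcripts 13.4% were lower and 11.2% were higher, and of the brightest 25% of transcripts 26.3% and 13.3%. The lower clusters belonged to 10 genes, and 12 of them were clusters of the X-linked genes Rpl10, Rps4x and Rpl36a. Small subunit clusters were lower in 12 of 84 cases and large subunit clusters in 13 of 131. The 4 higher clusters were those of Rpl39l (0.68, adjusted p = 0.00109), Rpl34 (0.53, adjusted p = 0.00225), Rpl12 (0.23, adjusted p = 0.0121) and Rpl30 (0.19, adjusted p = 0.0473). The call of Rpl30 was lost under 14 of 21 alternative settings, with adjusted p up to 0.154, and that of Rpl12 under 3, with adjusted p up to 0.0518. The lower clusters were led by Rpl10l (-1.59, adjusted p = 4.81e-05) and Rpl36a (-0.35 and -0.32), followed by 5 of the 7 clusters of Rps18 (-0.26 for the largest), 1 of Rps21 (-0.25) and all 6 of Rpl10 (-0.20 to -0.24). The median over the members was -0.044, beside 0.035 over all transcripts, and after quantile normalization it was 0.0075, with 9 clusters higher and 20 lower. The number of lower clusters was 15 without Dgcr8 KO replicate 1, 14 without Dgcr8 KO replicate 3, 11 without Dicer KO replicate 1 and 15 without Dicer KO replicate 2.

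In the machinery that makes ribosomes, most clusters were lower in both mutants. Of 72 clusters of 68 ribosome assembly factors, 63 were lower without Dgcr8 and 57 without Dicer and none was higher in limma, in SAM or at an unadjusted p under 0.05, with medians of -0.39 and -0.38. Nip7, which acts in the processing of pre-ribosomal RNA, was at 9.36, 9.51 and 9.55 in WT, 8.40, 8.41 and 8.49 without Dgcr8 and 8.56, 8.39 and 8.47 without Dicer, and fell by 1.04 (adjusted p = 2.51e-06) and by 1.00 (adjusted p = 2.31e-06). Nle1, a factor of large subunit maturation, fell by 0.90 and by 0.99, and Nop16, a nucleolar protein of the same path, by 0.83 and by 0.71. These 3 genes were below WT on every mutant array.

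RNA polymerase I and its factors, which transcribe ribosomal RNA, had 24 clusters, of which 18 were lower without Dgcr8 and 19 without Dicer and 1 was higher in each. Among these 24 clusters 9 belong to Taf1d. Polr1d, a subunit that polymerases I and III share, fell by 0.87 in Dgcr8 KO (adjusted p = 6.7e-06) and by 0.47 in Dicer KO (adjusted p = 0.000307), while Taf1b, of the promoter selectivity factor, rose by 0.49 and by 0.39. Of the 18 clusters of translation factors whose mRNAs carry a TOP tract, 7 were lower in each mutant and none was higher in limma, in SAM or at an unadjusted p under 0.05. Eef1d, an exchange factor of elongation, fell by 0.58 and by 0.52, whereas Eef2 had 0.02 and 0.01 and did not pass the test. Of 36 clusters of other translation factors 23 were lower and 4 higher in Dgcr8 KO, and 19 were lower and 2 higher in Dicer KO. Eif1ax, an initiation factor, fell by 1.01 and by 0.39, and Eif2s2, a subunit of the factor that brings the initiator tRNA, rose by 0.62 and by 0.74.

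Mitochondrial ribosomal proteins, which build the separate ribosome of the mitochondrion, had 85 clusters of 77 genes. Of these, 52 were lower and 3 higher in Dgcr8 KO, and 50 were lower and 3 higher in Dicer KO, with medians of -0.24 and -0.26. Mrpl20 fell by 1.04 (adjusted p = 1.1e-06) and by 0.45 (adjusted p = 0.000184), Mrpl34 by 0.96 and by 0.92, and Mrpl14 rose by 0.25 and by 0.31. The medians against WT of the 5 lists of this and the preceding paragraphs were below 0 in both mutants under each of the 3 other scalings.

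**Figure D5:**
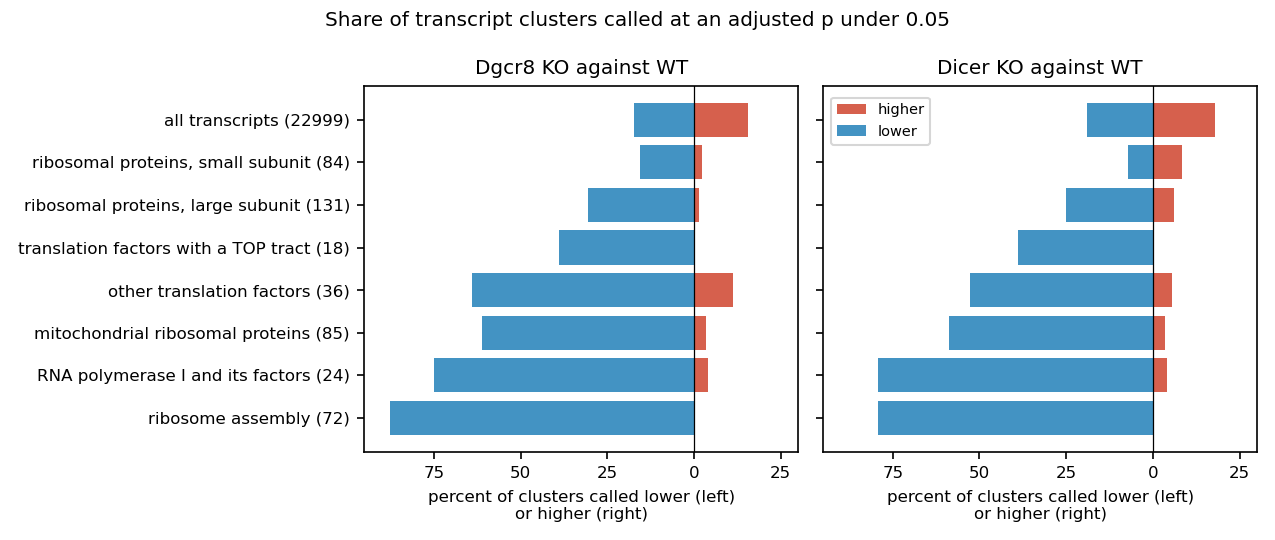
Percent of transcript clusters called lower (to the left) or higher (to the right) than WT at an adjusted p under 0.05 in Dgcr8 KO and Dicer KO, with the number of clusters of each list in parentheses. The share of lower clusters was 17.3% and 19.1% over all transcripts, 87.5% and 79.2% for ribosome assembly, and 75% and 79.2% for RNA polymerase I and its factors.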

How the data were processed

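RNA of ES cells of 3 genotypes was hybridized to 9 Affymetrix arrays, 3 each for WT, Dgcr8 KO and Dicer KO. The deposited values are log2 levels per transcript cluster that the authors normalized between arrays, by RMA according to the methods and by GCRMA according to the processing notes, with versions not given in the sources used here. They were used as deposited, and the number of arrays limits the precision. The platform annotation gave the gene symbols, and in it 21789 clusters have 1 symbol, 1621 several and 12147 none, and positions and promoter windows from RefSeq of GRCm38.p6. Clusters without a symbol were not counted, nor were those of miRNA genes only (326), mitochondrial (7) and Y-linked clusters (78), which the study left out of its small RNA overlap and which were left out here before testing. Of the columns of the table, 0 belong to no sample.

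With 1 mean for each genotype, all 9 arrays were fitted together in limma 3.58.1 (lmFit, eBayes) in R 4.3.3, with 6 residual degrees of freedom. Adjustment was by Benjamini-Hochberg over 22999 transcripts, a cluster being called at an adjusted p under 0.05. The scripts were tested on simulated data. Members and lists were chosen with earlier results of these data known, so counts and medians over them are given without a test, and a permutation test of the mean level per array that had been planned was not used. Named were the 5 called members with the largest log2 ratio per contrast and direction, members of the lists by role, members with several clusters and, in other lists, the 2 called genes per direction with the smallest adjusted p. From the lists of other genes only a selection of those is given. Eef2 was named after its values were seen. Alternatives numbered 23 planned and 3 added after the data were seen: another test (SAM), scaling, filter, variance model, weights, threshold or set of members, a replicate block, and each array left out.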

Additional observations from a re-analysis of the deposited data

Results flagged for a closer look

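The effects of the 2 mutants differed in 3 genes by at least 0.5 on the log2 scale, by the direct comparison of Dgcr8 KO with Dicer KO in limma. Rpl10l was lower without Dgcr8 than without Dicer, with a log2 ratio of -1.59 (adjusted p = 4.81e-05). Rpl39l was higher in Dgcr8 KO, with 0.68 (adjusted p = 0.00109), and so was Rpl34, with 0.53 (adjusted p = 0.00225). Each was measured by 1 cluster, and all 3 calls held under every alternative run for them.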

How the results depend on the processing

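Counts are higher and lower members in the order Dgcr8 KO against WT, Dicer KO against WT, and Dgcr8 KO against Dicer KO, where the main analysis gave 4 and 53, 15 and 39, and 4 and 25. SAM, with added constants of 0.741, 0.469 and 0.162 in the same order, gave 3 and 2, 4 and 7, and 4 and 27. An adjusted p under 0.01 left 34 lower, 6 and 15, and 2 and 11. A change of at least 1.2-fold left 17 lower, 3 and 7, and 2 and 3. An intensity trend with robust variances gave 103 lower, 26 higher, and 8 and 59. The brightest 25% of transcripts alone gave 86 lower in the first and 52 in the third. Adding clusters with several symbols gave 7 and 128, 82 lower, and 7 and 48. Array weights gave 42 lower in the third, centring 2 higher and quantile normalization 9 higher. Without the symbols ending in l none (0) was higher in the first. With the brightest cluster of each symbol, 6 genes in place of 10 were lower in the third.

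Median log2 ratios were -0.0764, -0.0355 and -0.0443. They became -0.1144 and -0.0889 in the first and the third with centring, -0.0196 and 0.0075 with quantile normalization, and -0.0072, -0.0041 and -0.0019 in the 3 comparisons with cyclic loess. With 1 array left out, lower members ranged from 38 to 66, 22 to 41 and 11 to 32, higher members from 4 to 4, 8 to 16 and 3 to 4, and medians from -0.097 to -0.0665, -0.0527 to -0.0183 and -0.056 to -0.0287. The cause of these moves was not tested.

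Whether same-numbered arrays share more than a number is not known. Their deviations correlated between -0.2 and 0.344, and those of arrays with unlike numbers between -0.465 and 0.317. With the replicate number as a block, 4 and 48, 13 and 34, and 3 and 23 members were called. Of the values of named genes, 1799 kept their side of the threshold, 68 gained the call, 137 lost it and 0 called values changed sign. Some of the 1799 changed sign while uncalled in both settings, such as Rpl10 in Dgcr8 KO against WT (-0.05, with a range of -0.08 to 0.03). Signal over background is unknown, so levels of dim members such as Rpl3l may be background.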
